A study of Homo sapiens with 282 samples.

Results

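OCI-Ly3, an established human lymphoma line of the activated B cell type, was exposed to 14 compounds, and the clustered and linker histone genes were followed through these exposures. The genes were chosen by symbol alone, as those named H1, H2AC, H2BC, H3C or H4C followed by a number. This gave 64 of the 18239 genes that had a probe set of their own: 9 of H1, 15 of H2A, 18 of H2B, 10 of H3 and 12 of H4. Of these, 54 lie on chromosome 6, 6 on chromosome 1 and 4 elsewhere. Another 8 genes of these families, H2AC18, H2AC19, H3C13, H3C14, H3C15, H4C11, H4C14 and H4C15, were reached only by probe sets assigned to several genes and were not analysed here.

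Cells in wells of culture plates received a compound, the vehicle DMSO at 1% or medium alone. RNA was taken from the wells after 6, 12 or 24 h. HT HG-U219 arrays read it, 94 at each time and 282 in all. Each time had 8 DMSO arrays, 2 of untreated medium, 6 of methotrexate at 100 uM, and 3 at each of 2 concentrations of every other compound. The higher concentrations were 5 uM of cycloheximide, 0.31 uM of camptothecin, 20.2 uM of H-7, 22 uM of rapamycin, 0.143 uM of trichostatin A, 100 uM of monastrol, 0.101 uM of doxorubicin and 0.812 uM of etoposide. They were 0.105 uM of aclacinomycin A, 100 uM of blebbistatin, 0.032 uM of geldanamycin, 2.56 uM of mitomycin C and 0.01 uM of vincristine for the rest. Comparisons are with DMSO of the same time and at the higher concentration unless another is named, and all compounds of a time share the same 8 DMSO arrays. Levels are log2 values, on which a difference of 1 is a factor of 2, and changes are log2 differences ± standard error. A gene was called, and is said to rise or fall, when limma's Benjamini-Hochberg adjusted p over all genes was under 0.05. Nothing in the labels ties replicate arrays to separate cultures, so the p-values may measure technical spread alone.

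Histones package DNA. H2A, H2B, H3 and H4 form the nucleosome core, and H1, the linker histone, binds where DNA enters and leaves it. Most of these genes lie in clusters and are transcribed while DNA is replicated, and their mRNAs normally end in a conserved stem-loop without a poly(A) tail. Some also give transcripts with a tail. Blocking DNA synthesis is known to destabilise the stem-loop mRNAs, and blocking protein synthesis to stabilise them. The labelling kit named in the labels primes cDNA from the poly(A) tail, so the arrays read chiefly tailed transcripts. Tailed and stem-loop forms cannot be told apart here, and neither can fewer cells expressing a gene and less RNA per cell.

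In the DMSO arrays of 6 h, 9 of the 64 genes lay above the median of all genes on all 8 arrays and are called bright here: H1-2, H1-10, H2AC8, H2AC25, H2BC5, H2BC12, H2BC21, H4C3 and H4C12. Another 51 lay below it on all 8 and are called dim, and H2AC6, H2AC11, H2AC20 and H3C4 fell between. Members of a histone family share much of their coding sequence. Of the probe sets used, 35 were of the kind designed for a single transcript, while 15 ended in _s_at, 11 in _x_at and 3 in _a_at, kinds that can bind several transcripts. Cross-binding between members was not tested.

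The lymphoma line was checked on the same arrays. CD74 (13.1 ± 0.1, SD, n = 8), the invariant chain of antigen presentation, and PAX5 (7.23 ± 0.16, SD, n = 8), a B cell transcription factor, lay above the array median on all 8, 2 of 7 B cell markers measured, while MS4A1, CD79A, CD79B, CD22 and BLK lay below it on all 8. Of 7 T cell, 8 monocyte or macrophage and 9 fibroblast or epithelial markers, 0 lay above it on all 8. An array was counted as of low signal when the upper quartile of its values was under 8 or its ACTB probe sets differed by over 2 between the 3' and 5' ends. Of 94 arrays a time, 0 were such after 6 h, 31 after 12 h and 17 after 24 h. In comparisons of 3 arrays with 8 a histone gene had a median standard error of 0.113 after 6 h, 0.301 after 12 h and 0.262 after 24 h, so the 6 h data carry the smallest errors.

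The promoters of 6 genes that recur below are printed to show which shared elements their starts carry. RefSeq promoter windows on GRCh38.p14 matched 59 of the 64 genes. Each line holds the 250 bases before a start, 5' to 3' on the gene's strand, with the octamer (ATTTGCAT or ATGCAAAT) and the CCAAT box (CCAAT or ATTGG) in capitals. The octamer is the known motif of POU factors and typical of H2B promoters, and CCAAT is the motif of NF-Y.
H2AC6 promoter, chr6:26123922-26124171, + strand: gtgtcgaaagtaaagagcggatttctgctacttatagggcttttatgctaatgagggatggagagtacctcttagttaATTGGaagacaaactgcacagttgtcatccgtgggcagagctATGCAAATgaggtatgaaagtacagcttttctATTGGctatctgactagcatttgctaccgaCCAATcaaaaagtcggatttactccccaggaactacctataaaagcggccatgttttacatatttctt
H2BC21 promoter, chr1:149886683-149886932, - strand: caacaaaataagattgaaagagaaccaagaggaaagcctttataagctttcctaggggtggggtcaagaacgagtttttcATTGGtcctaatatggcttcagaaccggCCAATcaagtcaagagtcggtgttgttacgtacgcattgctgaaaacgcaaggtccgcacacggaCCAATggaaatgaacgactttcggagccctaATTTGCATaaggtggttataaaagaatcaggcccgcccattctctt
H2BC12 promoter, chr6:27146856-27147105, - strand: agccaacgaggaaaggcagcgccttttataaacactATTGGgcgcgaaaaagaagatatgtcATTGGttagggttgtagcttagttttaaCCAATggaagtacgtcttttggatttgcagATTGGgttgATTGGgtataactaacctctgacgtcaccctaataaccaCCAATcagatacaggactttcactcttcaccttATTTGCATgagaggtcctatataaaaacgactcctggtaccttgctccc
H2BC5 promoter, chr6:26157871-26158120, + strand: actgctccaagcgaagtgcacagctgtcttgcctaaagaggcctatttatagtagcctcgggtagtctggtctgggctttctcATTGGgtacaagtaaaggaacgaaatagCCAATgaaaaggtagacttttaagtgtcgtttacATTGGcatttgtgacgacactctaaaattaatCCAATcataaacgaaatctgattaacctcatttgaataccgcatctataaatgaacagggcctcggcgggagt
H2AC25 promoter, chr1:228457874-228458123, - strand: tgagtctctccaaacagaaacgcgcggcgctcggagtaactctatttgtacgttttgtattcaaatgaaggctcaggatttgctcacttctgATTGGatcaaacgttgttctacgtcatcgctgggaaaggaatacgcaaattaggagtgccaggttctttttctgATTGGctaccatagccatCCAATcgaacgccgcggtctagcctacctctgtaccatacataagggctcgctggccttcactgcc
H1-10 promoter, chr3:129316287-129316536, - strand: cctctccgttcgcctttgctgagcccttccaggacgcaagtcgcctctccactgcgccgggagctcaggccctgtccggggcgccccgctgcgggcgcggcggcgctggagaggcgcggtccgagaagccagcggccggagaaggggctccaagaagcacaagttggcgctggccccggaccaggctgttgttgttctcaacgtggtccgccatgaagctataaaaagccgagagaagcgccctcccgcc

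The stretches of H2AC6, H2BC21 and H2BC12 each held 1 octamer. H2BC5 and H2AC25 held CCAAT boxes and no octamer, and H1-10, on chromosome 3 and outside the clusters, held neither. In windows from 250 bases before to 50 after the start, on both strands, the octamer was present in 11 of 14 H2A, 14 of 18 H2B, 1 of 8 H3, 0 of 9 H1 and 0 of 10 H4 genes, and in 1.77% of all 35116 windows. CCAAT or ATTGG was present in 14 of 14 H2A, 18 of 18 H2B, 8 of 8 H3, 8 of 9 H1 and 3 of 10 H4 genes, and in 34.6% of all windows. The H3 gene with the octamer is H3C4, in 1 of its 2 windows, which is also the window of H2AC7; its other window held none. A match describes the letters of a window and not binding.

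At 6 h histone genes were called with 9 of the 14 compounds. Of 124 calls over 14 compounds 108 were rises and 16 falls, and cycloheximide, camptothecin, H-7, rapamycin and trichostatin A held 115 of them. That is 92.7% of the calls of histone genes, and the same compounds held 81.8% of the calls of all genes. Counting 24 h as well, 57 of the 64 histone genes (89.1%) were called in at least 1 of 28 comparisons, as were 83.9% of all genes. On genes with several probe sets, another probe set was called the same way for 38 of 71 calls at 6 h and 20 of 50 at 24 h, and none was called for 32 and 30. Of the 28 comparisons, H2BC5 was called in 15, H4C8 in 10, H2BC8, H2AC8 and H1-10 in 9 each, H2BC15 in 8, H2BC12 in 7 and H2AC6 in 6. H1-1, H1-6, H1-7, H2BC1, H2BC18, H4C4 and H4C5 were called in 0.

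**Figure D1:**
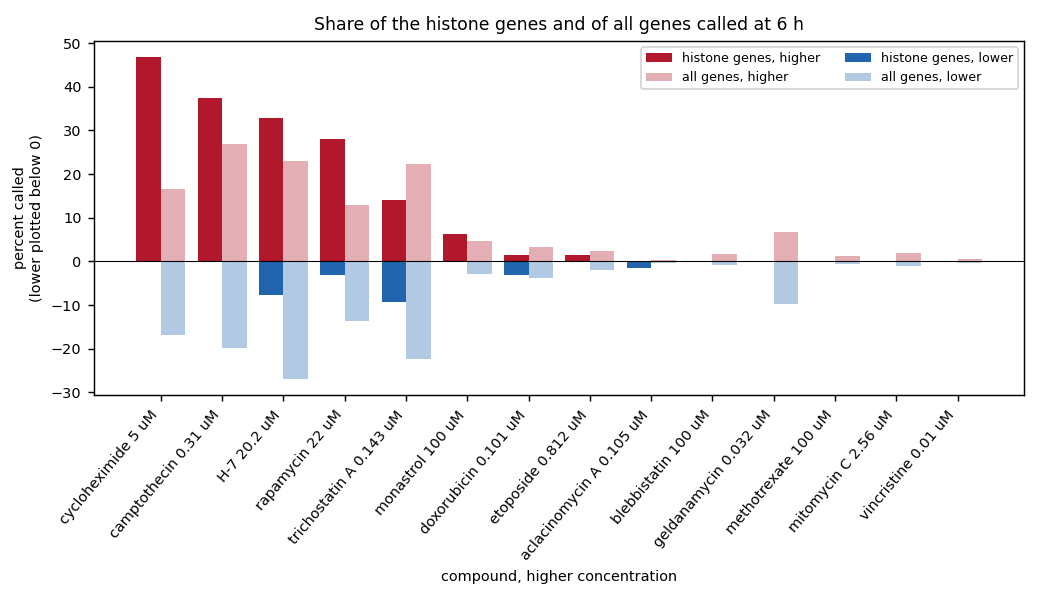
Percent of the 64 histone genes and of all genes called higher (above 0) or lower (below 0) than DMSO at 6 h, by compound at the higher concentration. With cycloheximide 30 of 64 histone genes were higher and 0 lower, while all genes were called in near equal shares both ways.

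Cycloheximide, an inhibitor of protein synthesis, was followed by more histone rises at 6 h than any other compound. Of the 64 genes 30 rose and 0 fell, against 16.5% and 16.8% of all genes that rose and fell. The median change of the 64 was 0.26, against -0.03 over all genes. The rises took in 3 of 9 H1, 9 of 15 H2A, 9 of 18 H2B, 4 of 10 H3 and 5 of 12 H4 genes, and all 9 bright genes.

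H2AC6, a core H2A gene, read 6.20 to 6.74 in DMSO (median 6.48, n = 8) and 8.63, 8.86 and 8.98 with cycloheximide. The ranges did not overlap, and H2AC6 rose by 2.35 ± 0.12 (limma, Benjamini-Hochberg adjusted p = 9.95e-30). H2BC5 read 8.63 to 9.07 in DMSO (median 8.86, n = 8) and 10.84, 10.73 and 10.77, again with no overlap, a rise of 1.92 ± 0.06 (limma adjusted p = 9.77e-46). All 3 probe sets of H2BC5 moved alike, the others by 1.85 and 1.55. H3C4, a core H3 gene, read 6.07 to 6.85 in DMSO (median 6.565, n = 8) and 8.53, 8.68 and 8.63, a rise of 2.06 ± 0.12. H2BC11 read 4.53 to 4.90 in DMSO (median 4.765, n = 8) and 6.53, 6.52 and 6.66, a rise of 1.83 ± 0.12. In H3C4 and H2BC11 too every treated array lay above DMSO.

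H2BC21, an H2B gene of the chromosome 1 cluster, rose by 1.40 ± 0.06 and H2BC12 by 0.94 ± 0.06, but the other probe sets of H2BC21 stood at 0.05 and 0.02 and that of H2BC12 at 0.27, and none was called. The linker genes H1-2 and H1-10 rose by 0.93 ± 0.07 and 0.75 ± 0.06. H2BC15 stood at 0.01 ± 0.13 and missed the threshold. At 0.264 uM 9 genes rose and 0 fell, against 5.32% and 4.44% of all genes, with H2BC5 at 0.70 ± 0.06, H2AC6 at 0.55 ± 0.12 and H1-10 at 0.44 ± 0.06. Between the concentrations 26 genes were higher at 5 uM and 0 lower, against 10.4% and 10.8% of all genes, H2AC6 by 1.80 ± 0.15 and H3C4 by 1.71 ± 0.14.

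**Figure D2:**
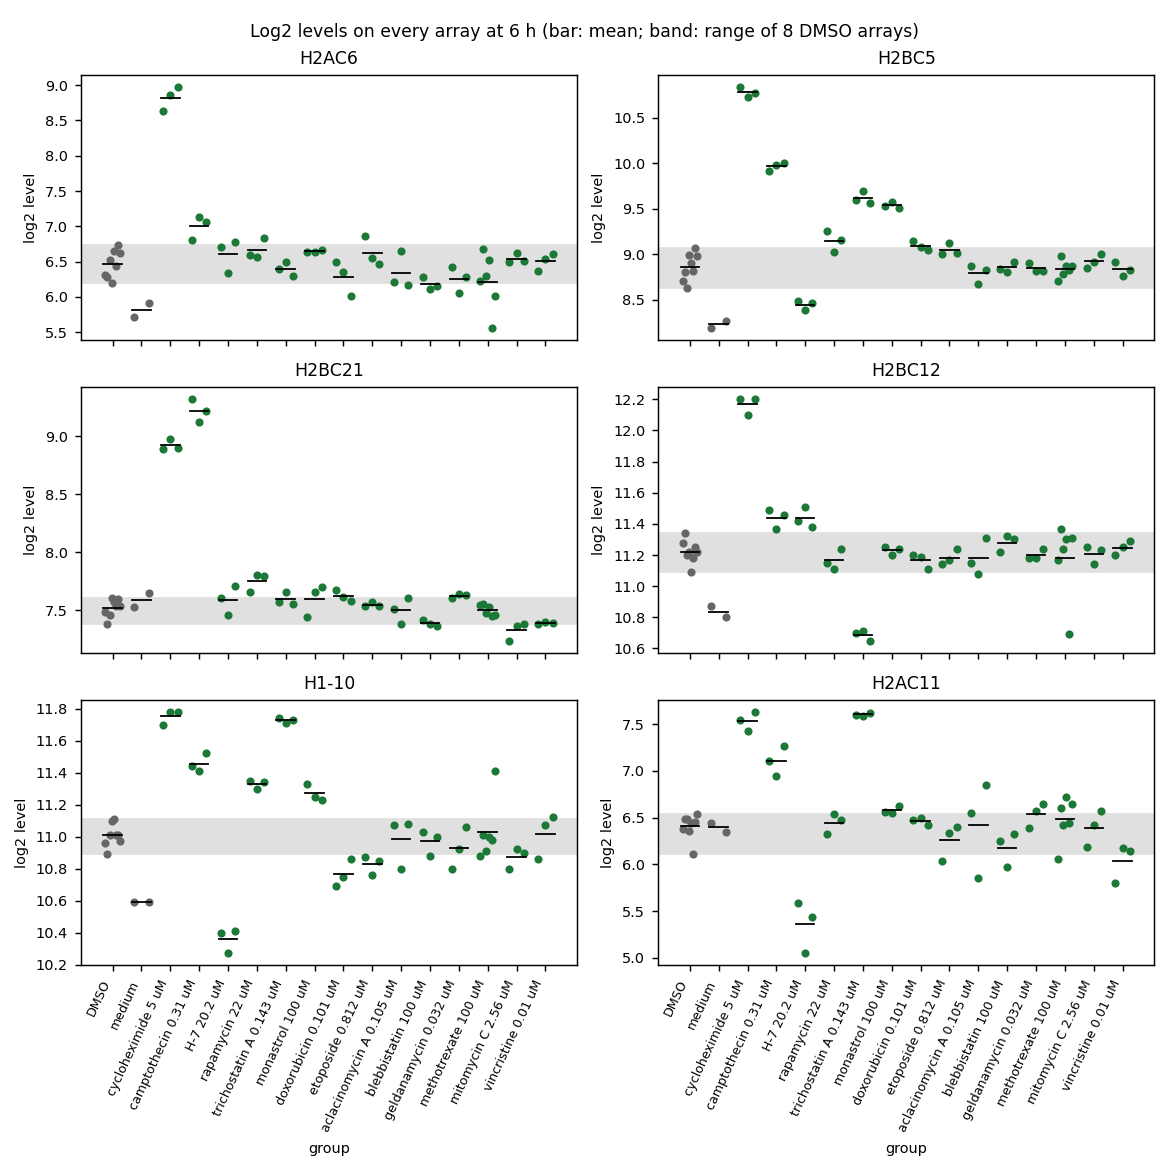
Log2 level of 6 histone genes (one panel each, y axis) on every array at 6 h, in DMSO, medium and 14 compounds at the higher concentration (x axis). Points are arrays, bars are group means and the band is the range of the 8 DMSO arrays; cycloheximide lies above the band for H2BC5 and H2AC6.

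Camptothecin, which traps topoisomerase I on DNA, was also followed by rises without falls. At 6 h 24 of 64 genes rose and 0 fell, against 27.0% and 19.9% of all genes, so the share that rose was not far above that of all genes. The rises were in 2 H1, 7 H2A, 5 H2B, 5 H3 and 5 H4 genes, 8 of the 9 bright genes among them. H2BC21 led. It read 7.38 to 7.61 in DMSO (median 7.54, n = 8) and 9.32, 9.12 and 9.22, with no overlap, a rise of 1.70 ± 0.06 (limma adjusted p = 8.74e-41). Its other probe sets gave -0.10 and 0.14 and missed the threshold, so the H2BC21 rise rests on 1 of 3 probe sets.

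H2BC15 read 5.53 to 6.50 in DMSO (median 5.99, n = 8) and 7.07, 7.33 and 7.00 with camptothecin, with no overlap, a rise of 1.12 ± 0.13. H2AC25 rose by 1.12 ± 0.10, H2BC5 by 1.10 ± 0.06 and H2AC6 by 0.53 ± 0.12. Of the linker genes, H1-10 rose by 0.45 ± 0.06 and H1-2 by 0.31 ± 0.07. The other probe set of H1-10 was not called. At 0.01 uM 1 gene rose, H2AC25 by 0.33 ± 0.10, and 0 fell, against 2.09% and 1.56% of all genes. Between the concentrations 16 were higher at 0.31 uM and 0 lower, against 20.9% and 18.2% of all genes, H2BC21 by 1.56 ± 0.08.

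Trichostatin A, an inhibitor of histone deacetylases, was followed by changes in both directions. At 6 h 9 of 64 genes rose and 6 fell, against 22.3% and 22.4% of all genes, both shares below those of all genes. H2AC11 read 6.11 to 6.54 in DMSO (median 6.445, n = 8) and 7.60, 7.59 and 7.62, with no overlap, a rise of 1.20 ± 0.12 (limma adjusted p = 1.26e-15); its other probe set also rose, by 0.74. The linker gene H1-10 read 10.89 to 11.11 in DMSO (median 11.01, n = 8) and 11.74, 11.71 and 11.73, a rise of 0.72 ± 0.06. All treated arrays of H1-10 lay above DMSO. H2AC25 rose by 0.79 ± 0.10, H2BC5 by 0.75 ± 0.06 and H1-2 by 0.27 ± 0.07.

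The falls with trichostatin A were led by H2BC4 (-0.61 ± 0.14), H2BC12 (-0.54 ± 0.06), H2AC15 (-0.50 ± 0.14) and H2BC11 (-0.37 ± 0.12). H2BC12 read 11.09 to 11.34 in DMSO (median 11.22, n = 8) and 10.70, 10.71 and 10.65, below DMSO on every array, but its other probe set stood at -0.08 and missed the threshold. At 0.114 uM 8 rose and 5 fell, against 22.4% and 21.9% of all genes. Between the concentrations 0 of 64 differed at the adjusted threshold and 2 at an unadjusted p under 0.05, against 0% of all genes called.

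H-7, an inhibitor of protein kinases, was followed by 21 rises and 5 falls at 6 h, against 23.0% and 27.0% of all genes. Of the 21 rises, 16 were in dim genes, which make up 51 of the 64. H2AC14 rose by 0.78 ± 0.13, H4C12 by 0.60 ± 0.09 and H2AC8 by 0.51 ± 0.10. The linker genes moved apart: H1-2 rose by 0.37 ± 0.07, H1-3 by 0.29 ± 0.11, H1-4 by 0.43 ± 0.12 and H1-5 by 0.41 ± 0.12, while H1-10 fell by 0.65 ± 0.06. H1-10 read 10.40, 10.27 and 10.41, below DMSO on every array.

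H2AC11, which rose with trichostatin A, read 5.59, 5.05 and 5.44 with H-7, below DMSO on every array, and fell by 1.05 ± 0.12 (limma adjusted p = 4.72e-13). Its other probe set stood at -0.05 and missed the threshold. H2BC5 fell by 0.42 ± 0.06 on the probe set that stands for the gene, while its other 2 rose, by 0.24 and 0.51, so H2BC5 has no settled direction with H-7. At 12.4 uM 9 genes rose and 6 fell, against 15.5% and 18.0% of all genes. Between the concentrations 3 were higher at 20.2 uM and 2 lower, against 11.3% and 19.4% of all genes.

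Rapamycin, an inhibitor of mTOR, was followed by 18 rises and 2 falls at 6 h, against 13% and 13.6% of all genes. The rises were in 1 H1, 4 H2A, 5 H2B, 4 H3 and 4 H4 genes. H2BC8 read 5.27 to 5.68 in DMSO (median 5.515, n = 8) and 6.41, 6.76 and 6.86, with no overlap, a rise of 1.18 ± 0.13 (limma adjusted p = 1.27e-12). H3C4 rose by 0.83 ± 0.12, H4C2 by 0.69 ± 0.12 and H4C8 by 0.65 ± 0.11. H3C8 fell by 0.36 ± 0.14, a direction that turned when all its probe sets were averaged, and the linker gene H1-2 by 0.17 ± 0.07, the H1-2 arrays overlapping DMSO. At 13.8 uM 4 rose and 1 fell, against 10.7% and 7.11% of all genes. Between the concentrations 10 were higher at 22 uM and 0 lower, against 2.40% and 3.76% of all genes, H2BC8 by 1.04 ± 0.15.

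**Figure D3:**
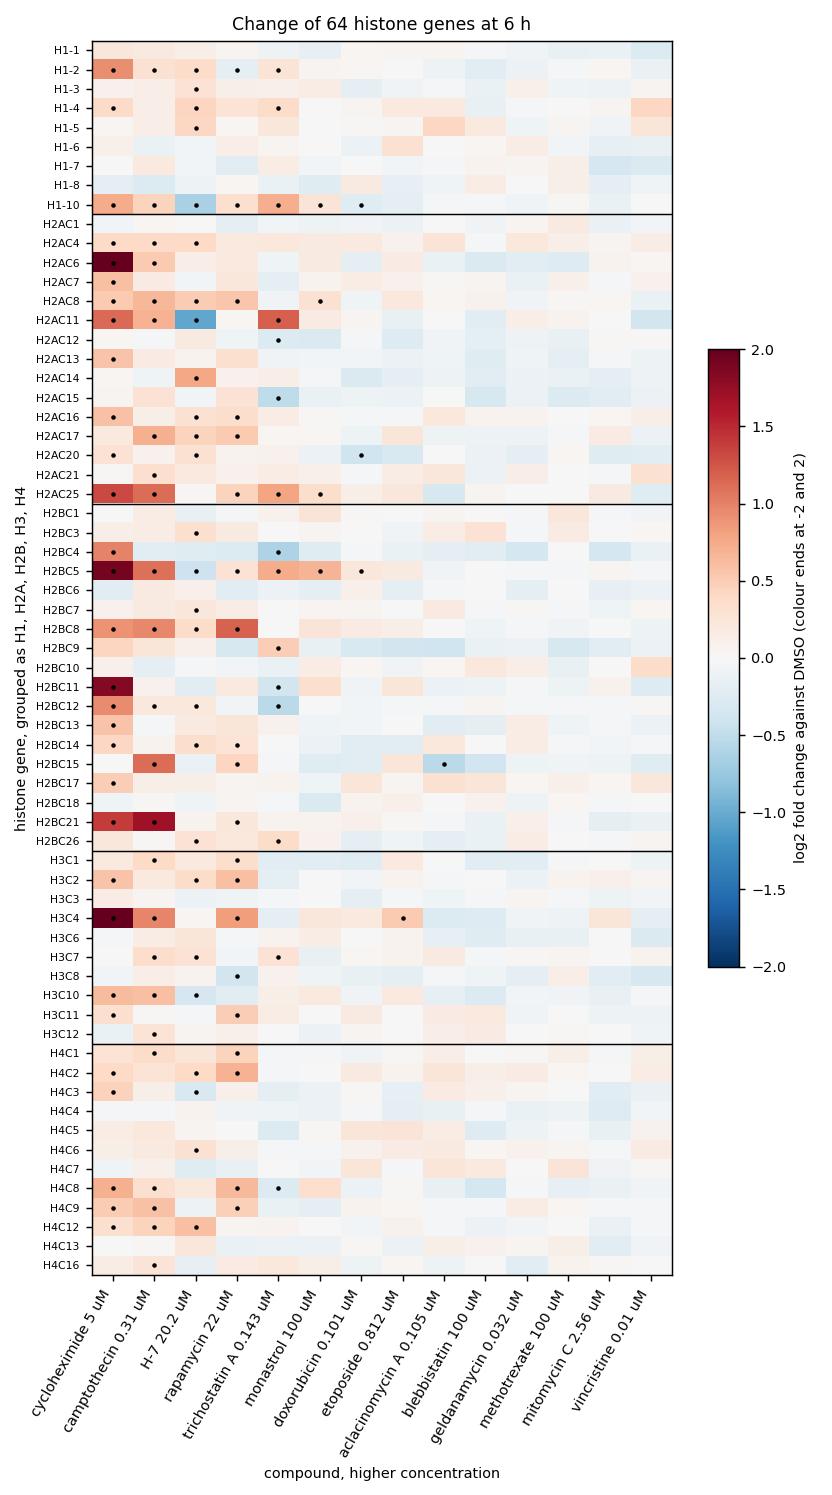
Log2 change against DMSO at 6 h of the 64 histone genes (y axis, by family) for 14 compounds at the higher concentration (x axis), with dots on called changes. The first 5 compounds hold 115 of the 124 dots; they hold 81.8% of the calls of all genes.

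Monastrol, an inhibitor of the mitotic kinesin Eg5, was followed by 4 rises and 0 falls at 6 h, against 4.61% and 2.99% of all genes: H2BC5 (0.67 ± 0.06), H2AC25 (0.34 ± 0.10), H2AC8 (0.31 ± 0.10) and H1-10 (0.26 ± 0.06). H2BC5 read 9.53, 9.57 and 9.51, above DMSO on every array. Neither the other probe set of H2AC8 nor that of H1-10 was called with monastrol at 100 uM. At 50 uM 4 rose and 0 fell, against 0.959% and 0.510% of all genes, H2BC5 by 0.37 ± 0.06.

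Of the compounds that act on topoisomerase II or intercalate into DNA, doxorubicin was followed by 1 rise and 2 falls, against 3.40% and 3.74% of all genes: H2BC5 (0.23 ± 0.06), H2AC20 (-0.40 ± 0.12) and H1-10 (-0.24 ± 0.06). No other probe set of H2BC5, H2AC20 or H1-10 was called with doxorubicin. Etoposide was followed by 1 rise, H3C4 (0.52 ± 0.12), and 0 falls, against 2.48% and 2.09% of all genes. At the lower etoposide concentration, 0.811 uM and so nearly the same, there were 1 rise and 2 falls, against 3.56% and 2.78% of all genes. Aclacinomycin A was followed by 0 rises and 1 fall, H2BC15 (-0.55 ± 0.13), against 0.345% and 0.428% of all genes. With blebbistatin, geldanamycin, methotrexate, mitomycin C and vincristine limma called 0 of 64 genes in either direction. The shares of all genes called higher and lower were 1.67% and 0.921% with blebbistatin, 6.73% and 9.75% with geldanamycin, 1.17% and 0.587% with methotrexate, 1.88% and 1.09% with mitomycin C and 0.532% and 0.417% with vincristine. At an unadjusted p under 0.05 these counts were 11, 2, 7, 9 and 13 of 64.

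Medium without vehicle also differed from DMSO at 6 h. With 2 medium arrays 0 genes were higher and 5 lower in medium, against 11.7% and 13.8% of all genes: H2AC6 (-0.66 ± 0.14), H2BC5 (-0.63 ± 0.07), H2BC4 (-0.49 ± 0.17), H1-10 (-0.42 ± 0.07) and H2BC12 (-0.39 ± 0.07). H2BC5 read 8.19 and 8.27, below all 8 DMSO arrays.

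Many H2A and H2B genes lie head to head around a shared promoter region, and 11 such pairs, with 194 to 248 bases between their starts, were measured. Of all 64 histone genes 30 rose with cycloheximide, and of all genes 16.5%. With cycloheximide both genes rose in 5 of 11 pairs and a single gene in 4. Both rose in H2BC4 and H2AC6 (1.00 ± 0.14 and 2.35 ± 0.12), in H2BC11 and H2AC11 (1.83 ± 0.12 and 1.13 ± 0.12), in H2BC8 and H2AC8 (0.89 ± 0.13 and 0.53 ± 0.10), in H2BC13 and H2AC13 (0.56 ± 0.13 and 0.57 ± 0.15) and in H2BC21 and H2AC20 (1.40 ± 0.06 and 0.29 ± 0.12). In these pairs no other probe set of H2BC21, H2AC11 or H2AC13 was called, and H2AC20 only just passed the threshold (limma adjusted p = 0.049). H2AC6, H2BC4, H2BC11, H2BC8 and H2AC13 were read from _s_at or _x_at probe sets, kinds that can bind several transcripts. In H2AC25 and H2BC26 the changes were 1.33 ± 0.10 and 0.23 ± 0.12, of which the second missed the threshold. With camptothecin both rose in 1 pair, H2BC8 and H2AC8 (0.97 ± 0.13 and 0.67 ± 0.10), and a single gene in 6. Of all 64 histone genes 24 rose with camptothecin, and of all genes 27.0%. There H2BC21 stood at 1.70 ± 0.06 on the probe set that stands for it, at -0.10 and 0.14 on its others, and its partner H2AC20 at 0.08 ± 0.12. With trichostatin A the pair H2BC11 and H2AC11 moved apart, H2BC11 reading 4.52, 4.46 and 4.12, below DMSO on every array, and H2AC11 above it. The changes were -0.37 ± 0.12 and 1.20 ± 0.12. This pair was picked out after its values were seen. Whether the genes of a pair moved together more than other histone genes was not tested.

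Many histone variant genes outside this family, such as those of H2A.Z, H3.3 and CENP-A, give tailed mRNAs. Of the variant genes 10 were measured, H2AX among them, and they were not chosen by tail. At 6 h 3 rose and 1 fell with cycloheximide, 4 and 3 with camptothecin, 1 and 3 with trichostatin A and 1 and 4 with rapamycin. Their median change was -0.01 with cycloheximide and 0.01 with camptothecin, where the 64 histone genes had 0.26 and 0.18 and all genes -0.03 and 0.06. H2AJ, an H2A variant, rose by 0.73 ± 0.14, 1.17 ± 0.14 and 0.94 ± 0.14 with cycloheximide, camptothecin and trichostatin A. CENPA, the centromeric H3, stood at -1.73 ± 0.05 with camptothecin.

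Of 19 factors that process or bind histone mRNA, 7 rose and 4 fell with cycloheximide at 6 h and 8 and 7 with camptothecin, with LSM11, a subunit of the U7 particle, at -0.82 ± 0.11 with cycloheximide. Of 21 histone chaperones, 5 rose and 7 fell with cycloheximide and 7 and 10 with camptothecin. HIRA and DAXX, which deposit H3.3, stood at -1.23 ± 0.12 and -0.95 ± 0.07 with cycloheximide. Of 39 DNA replication genes, 11 rose and 5 fell with cycloheximide, 13 and 19 with camptothecin and 3 and 31 with rapamycin, where the flap endonuclease gene FEN1 stood at -0.82 ± 0.06. Beside these lists, 16.5% of all genes rose and 16.8% fell with cycloheximide, 27.0% and 19.9% with camptothecin, 13% and 13.6% with rapamycin and 22.3% and 22.4% with trichostatin A.

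At 12 h limma made 30 calls over the 14 compounds. Low-signal arrays included 4 of the 8 of DMSO and all 3 of aclacinomycin A, blebbistatin and doxorubicin. Over the other 11 compounds there were 24 calls with all arrays and 53 without low-signal arrays. Cycloheximide was followed by 11 rises and 0 falls, against 2.13% and 0.800% of all genes. The 12 h total was 11 without replicate 1 of the compounds, 63 without replicate 2 and 15 without replicate 3, so single genes are not described for this time.

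At 24 h 97 calls were made, 84 rises and 13 falls. With cycloheximide 20 rose and 0 fell, against 5.97% and 7.52% of all genes. With H-7 16 rose and 4 fell, against 7.17% and 13.5% of all genes, and with mitomycin C 15 rose and 3 fell, against 7.77% and 18.1% of all genes. With camptothecin 10 rose and 0 fell, against 2.80% and 5.41% of all genes, and with doxorubicin 8 rose and 0 fell, against 3.00% and 3.07% of all genes. With monastrol 5 rose and 0 fell, against 0.482% and 0.724% of all genes, and with vincristine 2 rose and 0 fell, against 0.0219% and 0.0219% of all genes. With trichostatin A 5 rose and 0 fell, against 2.22% and 2.79% of all genes, and with rapamycin 3 rose and 0 fell, against 1.06% and 1.44% of all genes. Methotrexate ran the other way: 0 rose and 6 fell, against 3.42% and 1.32% of all genes. With aclacinomycin A, blebbistatin, etoposide and geldanamycin limma called 0 of 64, and at an unadjusted p under 0.05 0, 0, 4 and 4. The shares of all genes called higher and lower were 0% and 0%, 0.0329% and 0.0164%, 0.927% and 0.526% and 0.0219% and 0% in that order. Etoposide at 0.811 uM was followed by 0 rises and 1 fall, against 0.976% and 2.74% of all genes.

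Low-signal arrays sat in DMSO and in 7 of these 14 groups at the higher concentration. The 7 were H-7, camptothecin, cycloheximide, mitomycin C, monastrol, rapamycin and trichostatin A. Leaving these arrays out gave more calls with most compounds. All groups of a time share 1 estimate of the spread in the fit, so groups that lost no array could gain calls as well. With cycloheximide, then 1 array assumed to vary like the other groups, 28 rose and 3 fell, against 19.3% and 15.5% of all genes. With camptothecin 23 rose and 3 fell, against 18.6% and 15.4% of all genes, with doxorubicin 20 rose and 1 fell, against 15.9% and 19.9% of all genes, and with monastrol 22 rose and 2 fell, against 14.9% and 17.9% of all genes. With vincristine 17 rose and 1 fell, against 3.64% and 5.59% of all genes, with rapamycin 22 rose and 0 fell, against 14.5% and 13.2% of all genes, and with trichostatin A 16 rose and 2 fell, against 15.7% and 15.5% of all genes. With methotrexate 1 rose and 14 fell, against 15% and 20.6% of all genes, with H-7 11 rose and 5 fell, against 9.73% and 11.1% of all genes, and with mitomycin C 13 rose and 3 fell, against 14.2% and 15.6% of all genes. With etoposide 9 rose and 2 fell, against 11.4% and 13.6% of all genes, with geldanamycin 7 rose and 1 fell, against 2.35% and 2.85% of all genes, and with blebbistatin 0 rose and 6 fell, against 5.68% and 8.48% of all genes. Every gene called with camptothecin, monastrol and rapamycin on all arrays was called in the same direction without the low-signal arrays. So were 12 of 18 with mitomycin C, 10 of 20 with H-7 and 3 of 5 with trichostatin A. Cycloheximide kept 1 array, which gives no spread of its own, so kept calls are not counted for it. Every gene called with doxorubicin, methotrexate and vincristine also kept its call. The arrays of these compounds did not change between the fits, so that is no separate check of them.

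**Figure D4:**
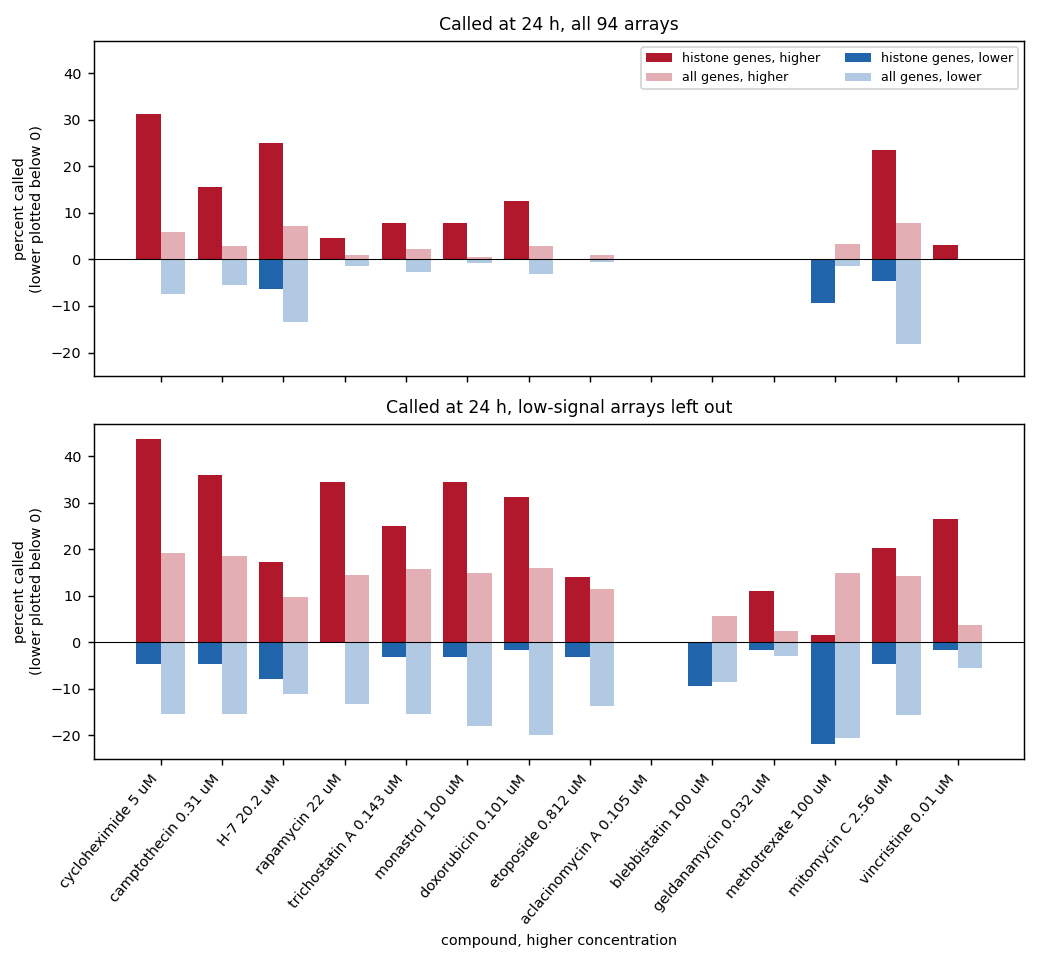
Percent of the 64 histone genes and of all genes called higher (above 0) or lower (below 0) than DMSO at 24 h, by compound, with all arrays and without low-signal arrays. Vincristine goes from 2 to 17 histone genes higher and monastrol from 5 to 22 when those arrays are left out. The vincristine group held no low-signal array, so its own arrays are the same in both fits.

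H2BC5 was the histone gene called most often at 24 h, higher with 6 compounds and lower with 2. It read 8.27 to 9.11 in DMSO (median 8.785, n = 8), the lowest from the low-signal array, replicate 7. With monastrol it read 10.61, 10.75 and 10.62, a rise of 1.88 ± 0.28 (limma adjusted p = 2.74e-05). With vincristine, which binds tubulin, it read 10.47, 10.39 and 10.30, a rise of 1.61 ± 0.28 (limma adjusted p = 0.00227). Both compounds lay above DMSO on every array, and without low-signal arrays the rises were 1.84 ± 0.08 and 1.54 ± 0.07. H2BC5 also rose with cycloheximide (1.40 ± 0.28), doxorubicin (1.30 ± 0.28), camptothecin (1.12 ± 0.28) and rapamycin (1.01 ± 0.28, with no other probe set called). At 6 h it stood at -0.03 ± 0.06 with vincristine, and the difference between the times, 1.64 ± 0.42, missed the threshold (limma adjusted p = 0.44).

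H2AC6 read 5.23 to 5.79 in DMSO (median 5.54, n = 8), and with monastrol 8.13 on the low-signal array and 7.46 and 7.15 on the others, a rise of 2.03 ± 0.29 with no overlap. At 6 h it stood at 0.18 ± 0.12, and the difference between the times was 1.86 ± 0.38 (limma adjusted p = 0.0129). H2BC15 read 5.81 to 6.55 in DMSO (median 6.135, n = 8) and 7.81, 7.81 and 7.68 with vincristine, a rise of 1.61 ± 0.27 with no overlap. H2AC6 with vincristine read 6.66, 6.56 and 7.16, above DMSO on every array, but missed the threshold (1.25 ± 0.29) and passed it without low-signal arrays (1.28 ± 0.16).

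Camptothecin and doxorubicin had several risen genes in common at 24 h, against the same DMSO arrays. H3C4 read 6.11 to 6.54 in DMSO (median 6.345, n = 8), 7.44, 8.01 and 7.90 with camptothecin and 7.78, 7.89 and 7.98 with doxorubicin, rises of 1.45 ± 0.35 and 1.55 ± 0.35. Neither compound overlapped DMSO. H4C8 rose by 1.21 ± 0.24 and 1.18 ± 0.24, H2BC15 by 1.22 ± 0.27 and 0.91 ± 0.27, and H2AC6 by 0.89 ± 0.29 and 1.22 ± 0.29. Most of these genes were not particular to the 2 compounds. At 24 h H4C8 rose with 6 compounds, H2BC15 with 5 and H2AC6 with 4, while H3C4 rose with 2. The overlap was not counted over all genes. H2AC8 rose with camptothecin by 1.30 ± 0.21 and H2BC21 with doxorubicin by 1.00 ± 0.27. No other probe set of H2BC21 was called with doxorubicin. Between camptothecin concentrations 2 genes were higher at 0.31 uM and 0 lower, against 0.428% and 2.86% of all genes: H2BC5 by 1.58 ± 0.34 and H2AC8 by 1.05 ± 0.25.

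With mitomycin C, a DNA cross-linker, 14 of 15 rises were in dim genes, while the 3 falls were in bright ones. Without low-signal arrays 10 of 13 rises were in dim genes, which make up 51 of the 64, and the 3 falls in bright ones. H3C2 rose by 1.25 ± 0.34, H2AC4 by 1.24 ± 0.34 and H2BC15 by 1.10 ± 0.27. H2BC12 read 10.80 to 11.37 in DMSO (median 11.2, n = 8), and 9.17 on the low-signal array, replicate 2, and 10.21 and 10.17 on the others, a fall of 1.33 ± 0.29, or 1.04 ± 0.07 without low-signal arrays. H2BC5 read 6.70 on that array and 8.54 and 8.66, inside the DMSO range, on the others; it fell by 0.81 ± 0.28, or 0.25 ± 0.08 without low-signal arrays. H2BC21 fell by 0.85 ± 0.27, or 0.33 ± 0.10, and its direction turned when all its probe sets were averaged. No other probe set of H2BC12, H2BC5 or H2BC21 was called with mitomycin C on all arrays. With replicate 2 of the compounds left out, 0 of 64 genes was called with mitomycin C, and with replicate 3 left out 33.

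With H-7 all 16 rises at 24 h were in dim genes, led by H2BC10 (1.18 ± 0.42) and H2AC14 (1.15 ± 0.33), and H2BC21 (-1.18 ± 0.27), H3C10 (-0.99 ± 0.32), H2BC12 (-0.97 ± 0.29) and H1-10 (-0.89 ± 0.24) fell. No other probe set of H2BC10, H2BC21, H3C10 or H2BC12 was called on all arrays, while that of H1-10 fell too. Without low-signal arrays 9 of 11 rises were in dim genes, which make up 51 of the 64. H2BC12 read 8.03 on the low-signal array, replicate 3, and 11.40 and 11.19 on the others. Without low-signal arrays H2BC12 stood at 0.06 ± 0.07 and H2BC10 at -0.10 ± 0.15, and neither was called, while H3C10 (-1.18 ± 0.21) and H2AC14 (0.85 ± 0.13) were. With replicate 3 of the compounds left out 0 of 64 genes was called with H-7, and with replicate 1 left out 35.

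Methotrexate, an inhibitor of dihydrofolate reductase, was followed by falls at 24 h. H2BC5 read 7.63 to 7.88 (median 7.735, n = 6) and fell by 1.03 ± 0.23 (limma adjusted p = 0.00109). H2BC12 read 9.97 to 10.42 (median 10.15, n = 6) and fell by 1.02 ± 0.23, though its other probe set stood at -0.16 and missed the threshold. H2AC8 fell by 0.74 ± 0.17 and H1-10 by 0.73 ± 0.19, and the other probe set of neither was called. In these 4 genes no methotrexate array overlapped DMSO. The 2 medium arrays of 24 h also lay below DMSO for H2BC5 (8.11 and 8.24) and H2BC12 (10.51 and 10.50), though limma called 0 of 64 higher and 0 lower in medium, against 0.537% and 0.175% of all genes. Without low-signal arrays 3 were higher and 6 lower in medium, 4 of the latter bright genes, against 9.12% and 11.1% of all genes. Methotrexate was not tested against medium. The 6 arrays carry the numbers 1 to 3, each on 2 arrays, and averaging those of a number left 2 calls in place of 6.

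**Figure D5:**
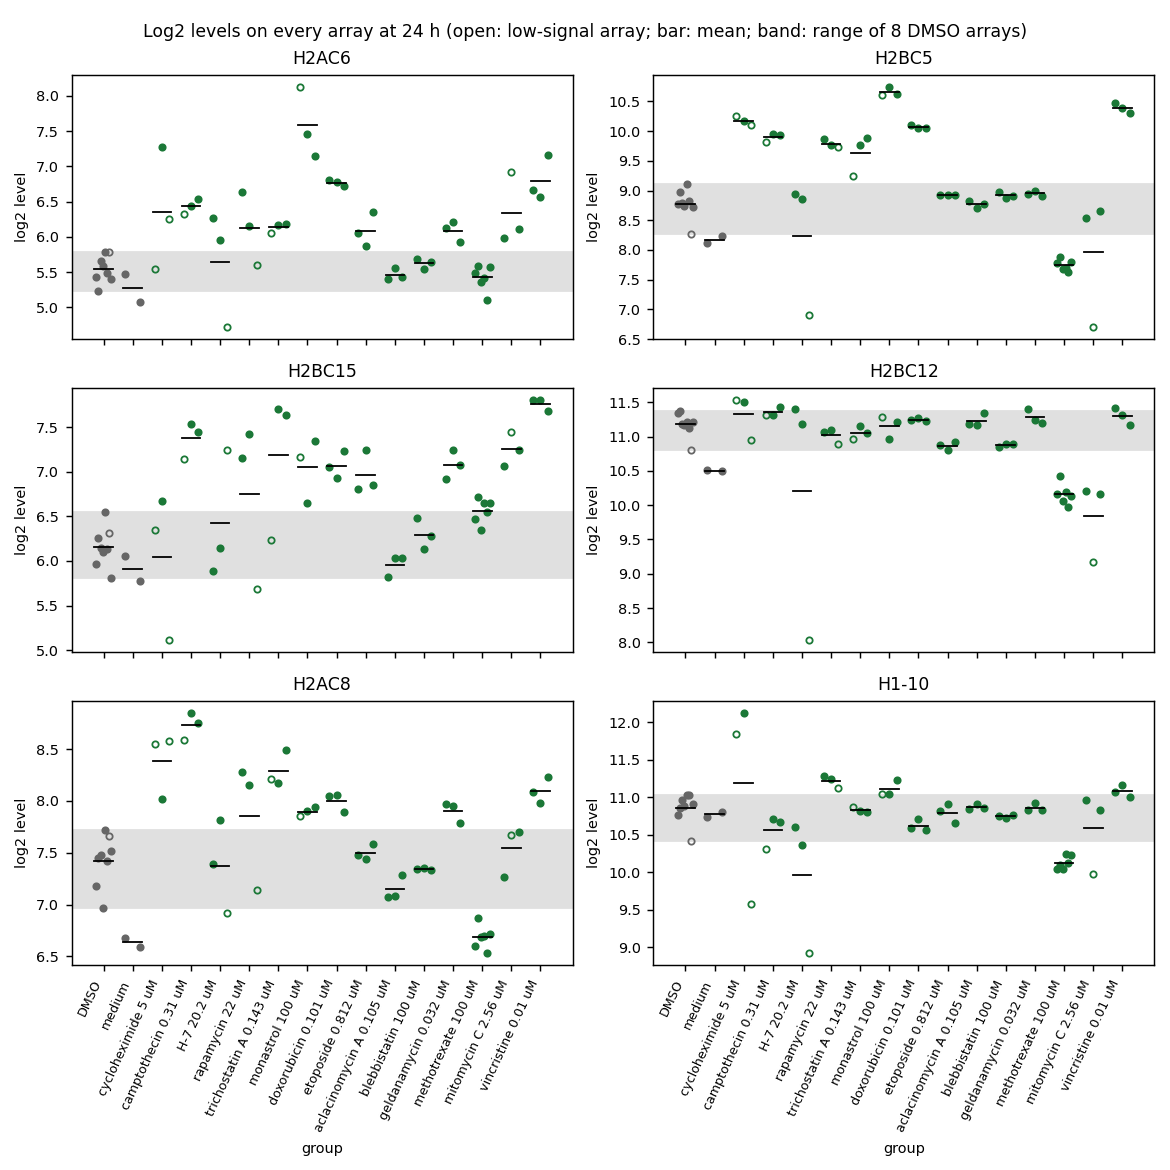
Log2 level of 6 histone genes (one panel each, y axis) on every array at 24 h, in DMSO, medium and 14 compounds at the higher concentration (x axis), with low-signal arrays as open points, bars at group means and a band over the range of the 8 DMSO arrays. H2BC5 lies above the band with monastrol and vincristine and below it with methotrexate.

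With cycloheximide at 24 h, where 2 of 3 arrays were of low signal, H2AC14 rose by 1.90 ± 0.33 and the linker gene H1-2 by 1.78 ± 0.42, H1-2 reading 9.58, 9.79 and 9.59 against 7.56 to 8.08 in DMSO (median 7.88, n = 8) with no overlap. H2AC14, a dim gene, had a DMSO mean of 3.62 at 24 h. It had stood at 0.05 ± 0.13 with cycloheximide at 6 h, a difference between the times of 1.86 ± 0.45 (limma adjusted p = 0.00484). With trichostatin A, where 1 of 3 arrays was of low signal, H4C6 rose by 1.23 ± 0.26. H4C6 is a dim gene with a DMSO mean of 3.79 at 24 h. It had stood at -0.04 ± 0.09 at 6 h, a difference between the times of 1.27 ± 0.26 (limma adjusted p = 1.50e-04). Rapamycin raised H4C8 by 1.25 ± 0.24, which read 7.00 on the low-signal array and 5.91 and 5.95 on the others, against 4.42 to 5.40 in DMSO (median 5.06, n = 8).

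Of the 39 replication genes at 24 h, 18 fell and 0 rose with camptothecin, 19 and 0 with doxorubicin, 14 and 0 with mitomycin C, 14 and 0 with H-7, 10 and 0 with rapamycin, 6 and 0 with cycloheximide, 5 and 0 with trichostatin A, 3 and 0 with monastrol, 0 and 0 with vincristine and 0 and 4 with methotrexate. Of all genes 5.41% fell with camptothecin, 3.07% with doxorubicin, 18.1% with mitomycin C, 13.5% with H-7, 1.44% with rapamycin, 7.52% with cycloheximide and 2.79% with trichostatin A, and 3.42% rose with methotrexate. With monastrol 0.724% fell and with vincristine 0.0219%. Of the 10 variant histone genes, 3 fell with camptothecin, 4 with doxorubicin and 0 with monastrol, and 0 rose with any of these. Of 21 p53 target genes, 17 rose with doxorubicin, 16 with methotrexate, 14 with etoposide, 12 with camptothecin and 12 with mitomycin C. With monastrol and vincristine 0 rose. Their median change was 1.78 with doxorubicin, 1.80 with methotrexate, 1.36 with etoposide, 1.16 with camptothecin and 1.04 with mitomycin C. It was 0.58 with vincristine and 0.03 with monastrol. Of all genes 3.00% rose with doxorubicin, 0.927% with etoposide, 2.80% with camptothecin and 7.77% with mitomycin C. Only 0.482% rose with monastrol and 0.0219% with vincristine, so few genes of any kind were called there. The part of these genes in the histone changes was not tested.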

How the data were processed

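The deposited values are log2 expression levels that the authors made with RMA, per the submitters' processing notes; the version is not given in the sources used here. RMA places arrays on a common distribution, which can pull low-signal arrays toward the others. Of 49386 probe sets, 45259 had 1 gene symbol, 1327 several and 2800 were not listed; each of 18239 genes was read from its probe set of highest mean level. limma 3.58.1 in R 4.3.3 (lmFit, then eBayes with trend) was fitted to the 94 arrays of each time, with Benjamini-Hochberg adjustment over all genes. For changes between times it was fitted to all 282 arrays. It was tested on simulated data with changes set in the doxorubicin group. Of changes of 1 it found 100% at 6 h and 50.75% at 24 h. Of changes of 0.5 it found 77.61% and 5.97%, so smaller changes were mostly missed at 24 h. Alternatives were a further quantile normalization, a filter on dim genes, the mean of probe sets, only the compared groups, the replicate number as a block, no low-signal arrays, averaged methotrexate arrays, and each replicate left out. The genes and lists were chosen with earlier results of these data known. Named genes are up to 4 of the largest rises and falls among those called, with H1-2, H1-10, H2AC6, H2BC5, H2BC12, H2BC15 and H2BC21 always, and array values for the 8 genes called most often; array values of H1-2, H2AC11, H2AC25, H2BC11, H2BC21 and H3C4, the other linker genes with H-7, and the paired genes were added after their values were seen. Up to 2 genes a list were named. Promoter windows are RefSeq's, on GRCh38.p14.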

Additional observations from a re-analysis of the deposited data

Results flagged for a closer look

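The change between 24 h and 6 h was tested with limma over all genes for each compound, and 10 histone genes were looked at. Each was the most changed with its compound among those called at 24 h, so the choice used the 24 h values. The change of 4 of these histone genes differed between the times. The difference, 24 h minus 6 h, was 1.86 for H2AC14 with cycloheximide, -1.31 for H2BC12 with mitomycin C, 1.86 for H2AC6 with monastrol and 1.27 for H4C6 with trichostatin A. No other probe set of H2BC12 was called with mitomycin C at 24 h. The mitomycin C and monastrol groups each hold 1 low-signal array at 24 h, trichostatin A 1 and cycloheximide 2. The part of these arrays in the differences was not tested.

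A sample stood far from the others of its group in 11 of 84 sets of values tested with Dixon's limit, where chance flags about 1 in 20 groups. Of these, 8 came from low-signal arrays. In DMSO at 24 h replicate 7 was lowest for H1-10 (10.42), H2BC12 (10.80) and H2BC5 (8.27). In DMSO at 12 h H2AC11 read 7.44 on replicate 8, H2BC11 5.64 on replicate 2 and H2BC5 6.60 on replicate 1. A methotrexate array of 12 h with the number 2 read 6.68 for H1-2 and 6.20 for H2BC21. The other 3 were not of low signal: H2AC11 read 6.11 on DMSO replicate 6 at 6 h, and a methotrexate array of 6 h with the number 3 read 11.41 for H1-10, and one with the number 3 read 10.69 for H2BC12.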

How the results depend on the processing

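Counts of called histone genes in the report come from limma on all arrays of a time, and those moved by over 1.5 times by another setting are given here; the cause was not tested. With the 40% dimmest genes left out, which keeps 19 of the 64 genes, the count of called histone genes at 6 h became 11 with H-7, 1 with blebbistatin, 15 with camptothecin, 17 with cycloheximide, 3 with etoposide, 1 with mitomycin C, 10 with rapamycin and 8 with trichostatin A. With only the compared groups in the limma fit, the 6 h count became 0 with aclacinomycin A and 2 with etoposide. With the replicate number as a block, the 6 h count became 0 with aclacinomycin A, 1 with doxorubicin, 4 with etoposide, 1 with geldanamycin, 3 with mitomycin C and 1 with vincristine. With a further quantile normalization, the 6 h count became 1 with blebbistatin, 3 with etoposide and 1 with mitomycin C. With probe sets averaged per gene, the 6 h count became 2 with blebbistatin, 0 with doxorubicin, 2 with etoposide and 1 with geldanamycin. With the 40% dimmest genes left out, which keeps 19 of the 64 genes, the count of called histone genes at 24 h became 6 with H-7, 8 with cycloheximide, 8 with mitomycin C, 2 with monastrol and 2 with trichostatin A. With only the compared groups in the limma fit, the 24 h count became 0 with H-7, 1 with blebbistatin, 19 with camptothecin, 14 with doxorubicin, 7 with etoposide, 2 with geldanamycin, 15 with methotrexate, 5 with mitomycin C, 13 with monastrol, 8 with rapamycin, 8 with trichostatin A and 10 with vincristine. With the replicate number as a block, the 24 h count became 5 with H-7, 6 with camptothecin, 11 with cycloheximide, 4 with doxorubicin, 3 with methotrexate, 3 with monastrol, 3 with trichostatin A and 1 with vincristine. With a further quantile normalization, the 24 h count became 1 with vincristine. With probe sets averaged per gene, the 24 h count became 3 with monastrol and 6 with rapamycin. Without low-signal arrays, the 24 h count became 6 with blebbistatin, 26 with camptothecin, 31 with cycloheximide, 21 with doxorubicin, 11 with etoposide, 8 with geldanamycin, 15 with methotrexate, 24 with monastrol, 22 with rapamycin, 18 with trichostatin A and 18 with vincristine. With methotrexate arrays of the same number averaged, the 24 h count became 2 with methotrexate. At 12 h the total became 53 without low-signal arrays, over the 11 compounds that kept an array, which held 24 calls with all arrays. Leaving out each replicate in turn gave ranges at 6 h of 17 to 27 with H-7, 0 to 3 with aclacinomycin A, 0 to 4 with blebbistatin, 20 to 25 with camptothecin, 25 to 31 with cycloheximide, 0 to 3 with doxorubicin, 1 to 3 with etoposide, 0 to 1 with geldanamycin, 0 to 0 with methotrexate, 0 to 1 with mitomycin C, 2 to 5 with monastrol, 15 to 21 with rapamycin, 10 to 16 with trichostatin A and 0 to 2 with vincristine. Leaving out each replicate in turn gave ranges at 24 h of 0 to 35 with H-7, 0 to 0 with aclacinomycin A, 0 to 0 with blebbistatin, 7 to 10 with camptothecin, 9 to 20 with cycloheximide, 4 to 9 with doxorubicin, 0 to 0 with etoposide, 0 to 0 with geldanamycin, 3 to 7 with methotrexate, 0 to 33 with mitomycin C, 2 to 7 with monastrol, 1 to 7 with rapamycin, 1 to 14 with trichostatin A and 0 to 2 with vincristine. The total at 12 h then ranged from 11 to 63. Among single genes, averaging probe sets turned H2BC5 with H-7 at 6 h to 0.11, H3C8 with rapamycin at 6 h to 0.0897 and H2BC21 with mitomycin C at 24 h to 0.11. With H-7 at 24 h H2BC10 turned to -0.10 and H2BC12 to 0.0621 without low-signal arrays. Leaving out each replicate, H2BC10 ranged from -0.21 to 2.01 and H2BC12 from -1.57 to 0.12, the ends being those without replicate 3 and without replicate 1. Of the named changes, 45 of 54 at 6 h and 29 of 49 at 24 h kept direction and call under the block, and none turned. Replicate numbers did not pair the arrays: the mean correlation of deviations between arrays of the same number was 0.000619, 0.0111 and 0.0138 at 6, 12 and 24 h, the lowest -0.338, -0.566 and -0.649, and 31, 27 and 34 of 84 arrays correlated best with their own number. Signal limits the 24 h data, where the median standard error of a histone gene was 0.262 against 0.113 at 6 h.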
